A study of Mus musculus with 6 samples.

Results

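The TGF-beta and BMP receptors described here are 9 genes of one receptor family, read in endothelial-enriched RNA of mouse carotid arteries on Illumina bead arrays. The members are Acvrl1, Eng, Tgfbr1, Tgfbr2, Tgfbr3, Bmpr1a, Bmpr2, Acvr1 and Acvr2a. Every probe that the platform annotation assigns to 1 of these symbols was taken. That gave 22 of the 45281 probes in the deposited table, for 9 of 19057 named genes. Of these 22 probes, 17 passed the filter on dim probes and were tested, with at least 1 for each gene. The other 5 were too dim.

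The arrays came in 2 groups, carotid arteries under disturbed flow (3 arrays) and under stable flow (3 arrays). The labels mark the disturbed flow arrays e-LCA and the stable flow arrays e-RCA, numbered alike, without saying whether equal numbers share an animal. Both groups are wild-type C57Bl/6J mice, and the sources used here state neither age nor sex. The labels do not say whether an array is 1 animal or a pool, so the spread behind each p-value is that of these arrays and may be technical. In tissue RNA, fewer cells of a type and less RNA per cell cannot be told apart. The series is about arterial stiffening and thrombospondin-1, a matrix protein that can activate latent TGF-beta.

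TGF-beta and BMP ligands bind a complex of type II and type I receptors, both of them serine/threonine kinases. The type II receptor phosphorylates the type I receptor, which then phosphorylates Smad proteins that act on transcription in the nucleus. Co-receptors without kinase activity present the ligand. In endothelium the type I receptor ALK1, encoded by Acvrl1, and the co-receptor endoglin, encoded by Eng, carry signals of BMP9 and BMP10. Loss-of-function mutations of either gene cause hereditary haemorrhagic telangiectasia in humans. The other 7 receptors are expressed in many cell types. No sequence is printed, because the probe sequences and receptor proteins were not among the sources used here.

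Arrays differed in quality, and their group names are in doubt. The share of all probes above background (detection p under 0.05 against negative control beads) ran from 19.6% to 34.7% on disturbed flow arrays and from 9.74% to 35.0% on stable flow arrays. The lowest was stable flow replicate 2, where the tested probes had an interquartile range of 0.14 in log2 signal, against 0.30 to 0.93 on the other arrays. Each of the 6 columns of the deposited series matrix ranks the probes exactly as an array described as the other flow group, with the same replicate number (rank correlation 1). Groups below follow the sample descriptions. Every sign given here would turn round under the names of the matrix columns, and the files do not settle which naming is right. The arrays of each described group also lie on a slide of their own, and the effects of slide and flow cannot be told apart.

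Endothelial markers were detected widely, together with some markers of smooth muscle and of fibroblasts and adventitia. All 12 endothelial markers have a probe and 11 of them were tested, while Kdr, a VEGF receptor gene, was above background on no array. Pecam1 was above background on 3 disturbed flow and 3 stable flow arrays with 2 of its probes, and Cdh5 likewise with 1 of its probes. Of the 8 smooth muscle markers 4 were tested, with Acta2 above background on 3 and 3 arrays with 2 of its 6 probes. Myh11 was above background on 2 and 1 arrays with its tested probe, while Tagln and Lmod1 were above background on no array. Of the macrophage and monocyte markers 1 of 8 was tested, and Ptprc, the pan-leukocyte marker, was above background on disturbed flow replicate 1 alone. The lymphocyte list had 0 tested members, and Cd3e and Cd3g were above background on no array. Of the 8 fibroblast and adventitia markers 6 were tested, of the 4 adipocyte markers 1 and of the 6 red cell and platelet markers 2. Median differences (disturbed minus stable flow, log2) were 0.02 over the 11 endothelial markers, 0.09 over 4 smooth muscle markers and 0.21 over 6 fibroblast and adventitia markers. Summed raw signal of the endothelial probes ranged from 4480 to 7908 on disturbed flow arrays and from 2426 to 10535 on stable flow arrays. For the smooth muscle probes this sum ranged from 1849 to 4041 and from 1892 to 3678, and for the fibroblast and adventitia probes from 1329 to 2147 and from 1248 to 3258, disturbed flow again before stable flow. The part of these cells in the receptor results was not tested.

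How many receptors were detected varied between arrays of both groups. Of the 22 receptor probes, 18, 16 and 11 were above background on disturbed flow replicates 1, 2 and 3. On stable flow replicates 1, 2 and 3 the numbers were 17, 6 and 17. Of the 17 tested probes, 11 were not above background on stable flow replicate 2 and 6 were not on disturbed flow replicate 3. Only 5 were above background on all 6 arrays: 2 probes of Tgfbr1 and 1 each of Tgfbr3, Bmpr1a and Bmpr2. Of the endothelial pair, Acvrl1 was above background on 5 arrays and Eng on 4.

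**Figure D1:**
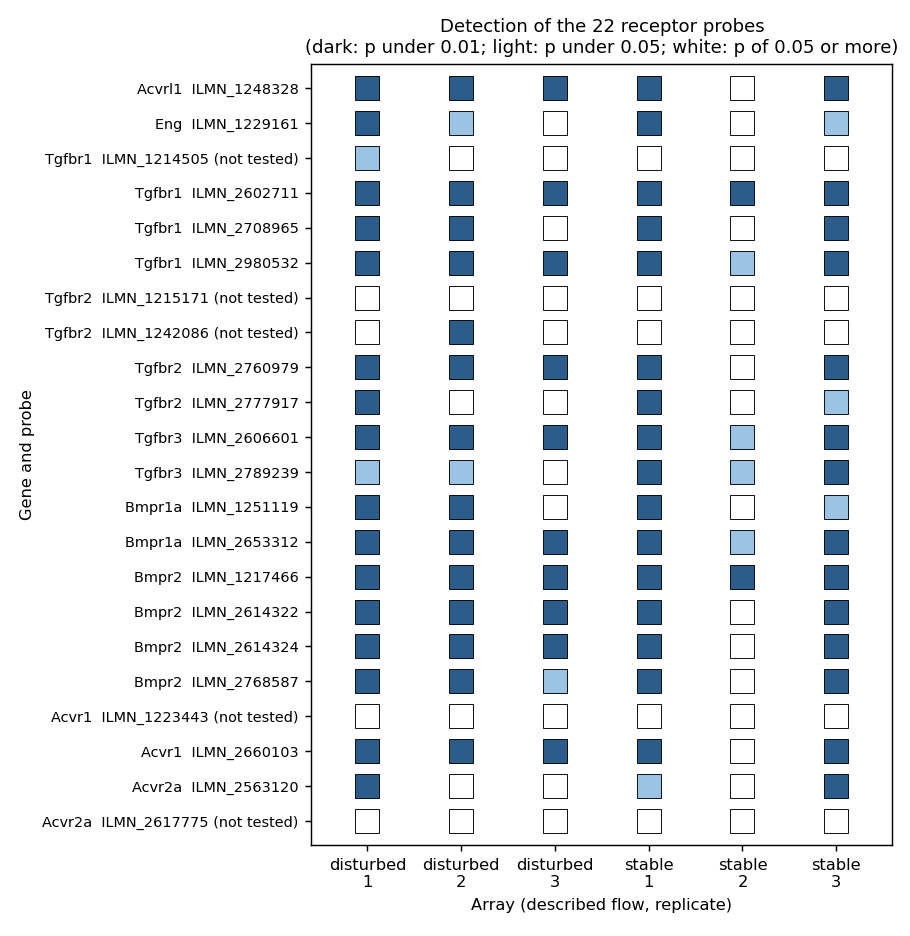
Detection of each of the 22 receptor probes (rows) on the 6 arrays (columns, disturbed flow left of stable flow), with dark squares for a detection p under 0.01, light squares for p under 0.05 and white squares for higher p. Stable flow replicate 2 has 6 filled squares, and 3 probes are white on all arrays.

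No receptor passed the test between disturbed and stable flow. With limma's moderated test, 0 of the 17 probes were called at an adjusted p under 0.05, where 0% of all 12546 tested probes were called. At an unadjusted p under 0.05 there was 1 of 17, the Acvrl1 probe, where 2.69% of all tested probes were. Adjusted p-values of the 17 ran from 0.890 to 0.988. For each gene the tested probe with the highest mean stands for it, and log2 differences are those of background-corrected, quantile-normalized intensity, with 16 added before log2. The median difference over the 9 genes was 0.29, beside 0.10 over all tested probes, with 7 genes above 0 and 2 below. That median is the value of the Bmpr2 probe, for which the annotation names no transcript. Among all 17 probes, 10 were above 0 and 7 below, and 57.5% of all tested probes were above 0. By role, the median was 0.40 over the 4 type I receptors, 0.29 over the 3 type II receptors and 0.36 over the 2 co-receptors. Setting the 75th percentile of every array equal, in place of quantile normalization, moved the median of all probes to -0.11, with 40.3% above 0, and gave 0.53 for the 9 genes. The receptor median was then 0.64 above that of all probes, against 0.20 with quantile normalization, 0.11 without stable flow replicate 3 and 0.05 with array weights.

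**Figure D2:**
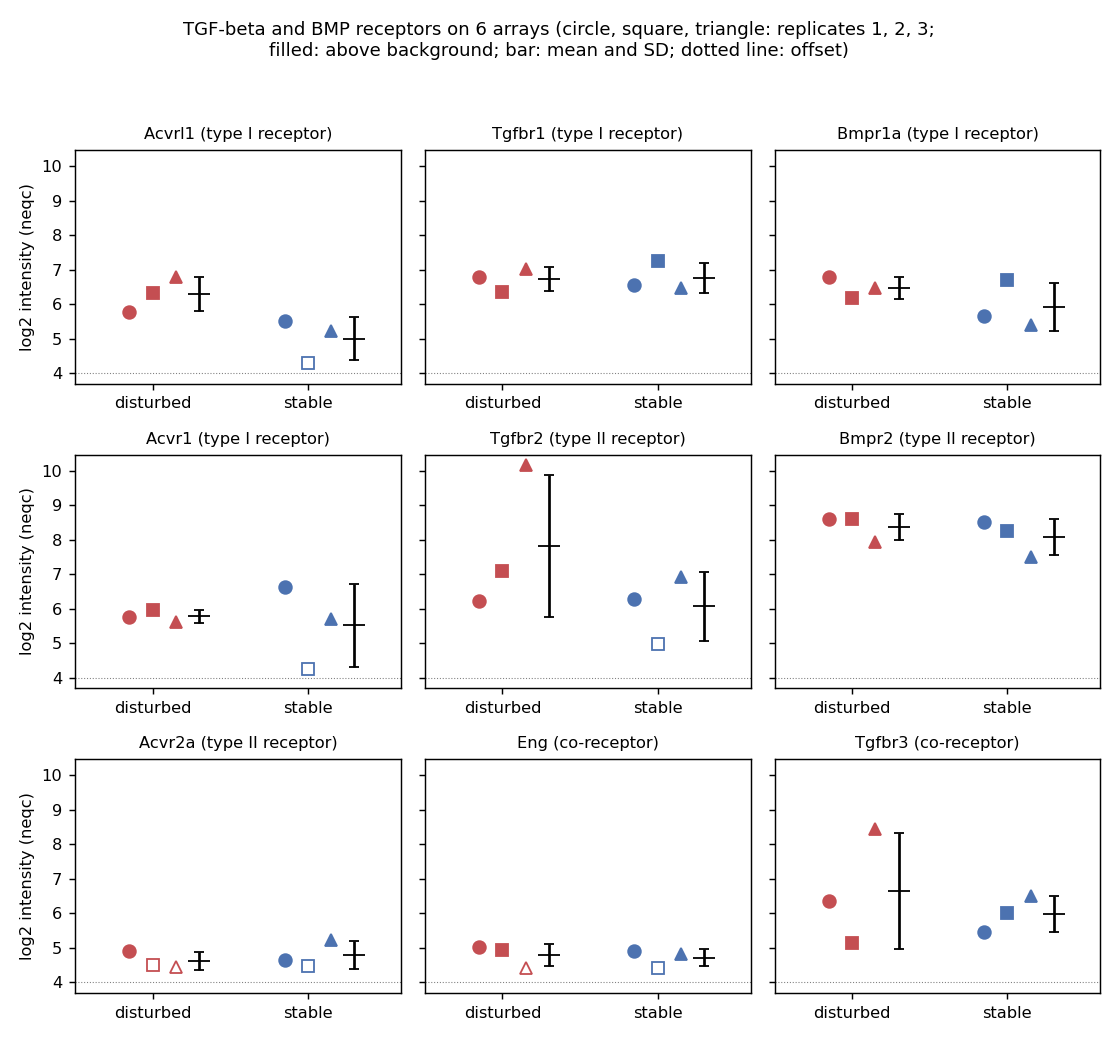
Normalized log2 intensity (vertical axis) of the probe that stands for each of the 9 genes, disturbed flow left of stable flow in each panel, with 3 arrays per group, filled symbols above background, and mean ± SD at the right. Levels are comparable within a panel and not between panels, since each probe binds differently. In the Acvrl1 panel the lowest disturbed flow array (5.78) lies above the highest stable flow array (5.51).

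Of the 4 type I receptors, Acvrl1 had the largest difference over the 6 arrays, but without stable flow replicate 2 it and Bmpr1a both stood at 0.99. Its only probe, ILMN_1248328, had raw signals of 138, 132 and 113 on disturbed flow replicates 1, 2 and 3, and of 178, 85.7 and 118 on stable flow replicates 1, 2 and 3. After normalization these became 5.78, 6.32 and 6.77 on the disturbed flow arrays and 5.51, 4.29 and 5.21 on the stable flow arrays. The 2 groups do not overlap on the normalized scale, but they do overlap in raw signal, where stable flow replicate 1 is the highest of all 6. Stable flow replicate 1 also had the highest median raw signal over all probes (109.6, against 77.6 to 101 on the others). The means were 6.29 ± 0.50 under disturbed flow and 5.00 ± 0.63 under stable flow (SD, n = 3 each).

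The Acvrl1 difference was 1.29 on the log2 scale (SE 0.46, 95% interval 0.22 to 2.36, limma adjusted p = 0.890), so it did not pass the test. Of the 17 receptor probes it was the only one whose groups did not overlap with disturbed flow higher, and 0 did not overlap with disturbed flow lower. Over all tested probes these shares were 5.68% and 4.00%, so 1 of 17 is near the background. The probe was above background on 3 disturbed flow and 2 stable flow arrays, and the array on which it was not, stable flow replicate 2, had its lowest value. Without that array the difference was 0.99 (SE 0.42). It was 0.49 with no background correction, 0.68 with no normalization, 0.76 with an offset of 50, 0.78 with cyclic loess and 0.84 with 75th-percentile scaling. Its sign was the same in each of these, and adjusted p-values over all alternatives with the described groups ranged from 0.732 to 1.00.

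Tgfbr1 encodes ALK5, the general type I receptor for TGF-beta. It has 4 probes, of which 3 were tested. The brightest, ILMN_2602711, had log2 intensities of 6.79, 6.35 and 7.03 on disturbed flow arrays and 6.54, 7.25 and 6.48 on stable flow arrays. The groups overlap, with a difference of -0.04 (SE 0.38, 95% interval -0.92 to 0.85, limma adjusted p = 0.988). The probes ILMN_2708965 and ILMN_2980532 gave -0.09 (SE 0.46) and -0.13 (SE 0.37). All 3 values are small, and each turned sign when single arrays were left out. The 3 probes did not read the same pattern: over the 6 arrays ILMN_2602711 correlated with ILMN_2980532 at r = 0.71 and with ILMN_2708965 at r = -0.93. Stable flow replicate 2 was the highest array for ILMN_2602711 and ILMN_2980532 and the lowest for ILMN_2708965, which was not above background there. Without that array the correlations were 0.25 and -0.86, so the positive one rests on it and the negative one does not. The probe ILMN_1214505 was above background on disturbed flow replicate 1 alone and was not tested.

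Bmpr1a, also called ALK3, and Acvr1, also called ALK2, are type I receptors for BMP ligands. The Bmpr1a probe ILMN_2653312 was above background on all 6 arrays, with 6.80, 6.17 and 6.45 under disturbed flow and 5.66, 6.71 and 5.40 under stable flow. Stable flow replicates 1 and 3 lie below all disturbed flow arrays, and stable flow replicate 2 lies among them. The difference was 0.55 (SE 0.44, 95% interval -0.49 to 1.59, limma adjusted p = 0.890), and 0.99 without stable flow replicate 2. The other Bmpr1a probe, ILMN_1251119, also gave 0.55 (SE 0.64), from different arrays. It stood at 6.87, 5.12 and 4.52 under disturbed flow and 5.39, 4.40 and 5.08 under stable flow, and gave -0.13 without disturbed flow replicate 1. The 2 probes correlated at r = 0.16 over the 6 arrays.

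For Acvr1 the probe ILMN_2660103 had 5.75, 5.97 and 5.62 on disturbed flow arrays and 6.62, 4.24 and 5.70 on stable flow arrays. The stable flow values lie on both sides of the disturbed flow values. The difference of 0.26 (SE 0.60, limma adjusted p = 0.939) turned to -0.40 without stable flow replicate 2, where the probe was not above background. It also turned to -0.03 under 75th-percentile scaling, to -0.18 with cyclic loess and to -0.26 with no normalization. The other Acvr1 probe was above background on no array.

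Among the 3 type II receptors, Tgfbr2 had the widest spread of the family. Tgfbr2 binds TGF-beta directly and recruits Tgfbr1. Its probe ILMN_2760979 had raw signals of 167, 199 and 1099 on disturbed flow replicates 1, 2 and 3, and of 250, 93.2 and 204 on stable flow replicates 1, 2 and 3. In log2 intensity these were 6.22, 7.10 and 10.15 under disturbed flow and 6.30, 4.98 and 6.92 under stable flow. Disturbed flow replicate 3 stands alone, and the other disturbed flow arrays overlap the stable flow arrays. The difference was 1.76 (SE 1.02, 95% interval -0.64 to 4.16, limma adjusted p = 0.890). It was 0.62 without disturbed flow replicate 3, 1.23 without stable flow replicate 2 and 0.75 with array weights, which change the weight of all 6 arrays.

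Other probes had a single high array too. The top Tgfbr2 array stood 3.05 above the next, a gap reached by 304 of the 12546 tested probes (2.42%), of which 76 were highest on disturbed flow replicate 3. The other tested Tgfbr2 probe, ILMN_2777917, did not show it. It had 4.85, 4.36 and 4.65 under disturbed flow and 4.71, 4.34 and 5.09 under stable flow, a difference of -0.09 (SE 0.35, limma adjusted p = 0.961). On disturbed flow replicate 3, ILMN_2777917 was not above background. Of the remaining Tgfbr2 probes, ILMN_1242086 was above background on disturbed flow replicate 2 alone and ILMN_1215171 on no array.

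Bmpr2, the type II receptor for BMP ligands whose human mutations cause pulmonary arterial hypertension, was the best covered member, with 4 tested probes. The probe ILMN_1217466 was above background on all 6 arrays, with 8.59, 8.59 and 7.94 on disturbed flow arrays and 8.50, 8.26 and 7.49 on stable flow arrays. The groups overlap, and replicate 3 is the lowest of each. The difference was 0.29 (SE 0.41, 95% interval -0.66 to 1.25, limma adjusted p = 0.902), and it was -0.01 without stable flow replicate 3. It was 0.86 under 75th-percentile scaling and 0.95 with no normalization.

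The other Bmpr2 probes were dimmer. Their annotation names a Bmpr2 transcript, while that of ILMN_1217466 names none. Over the 6 arrays ILMN_1217466 correlated at r = 0.38 with ILMN_2614322, 0.28 with ILMN_2614324 and -0.30 with ILMN_2768587. Without stable flow replicate 2 these correlations were 0.86, 0.84 and -0.43. ILMN_2614322 and ILMN_2614324 correlated with each other at r = 0.97 and gave 0.55 (SE 0.39) and 0.71 (SE 0.44), both with a limma adjusted p of 0.890. Both were lowest on stable flow replicate 2, where neither was above background, and without that array they gave 0.27 and 0.32. ILMN_2768587 gave -0.07 (SE 0.79), with 5.79, 6.51 and 5.32 under disturbed flow and 6.24, 4.21 and 7.38 under stable flow. The stable flow arrays hold both its highest and its lowest value. Leaving out stable flow replicate 2 gave -0.98, and leaving out stable flow replicate 3 gave 0.66.

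Acvr2a, a type II receptor shared by activins and several BMP ligands, was near the floor. Its tested probe ILMN_2563120 had 4.91, 4.51 and 4.43 on disturbed flow arrays and 4.64, 4.48 and 5.24 on stable flow arrays, and it was above background on 1 and 2 of them. The groups overlap, with a difference of -0.17 (SE 0.36, limma adjusted p = 0.937) that turned to 0.07 without stable flow replicate 3. The other Acvr2a probe was above background on no array. The annotation assigns that probe to a RefSeq transcript, and the tested probe to a different record.

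**Figure D3:**
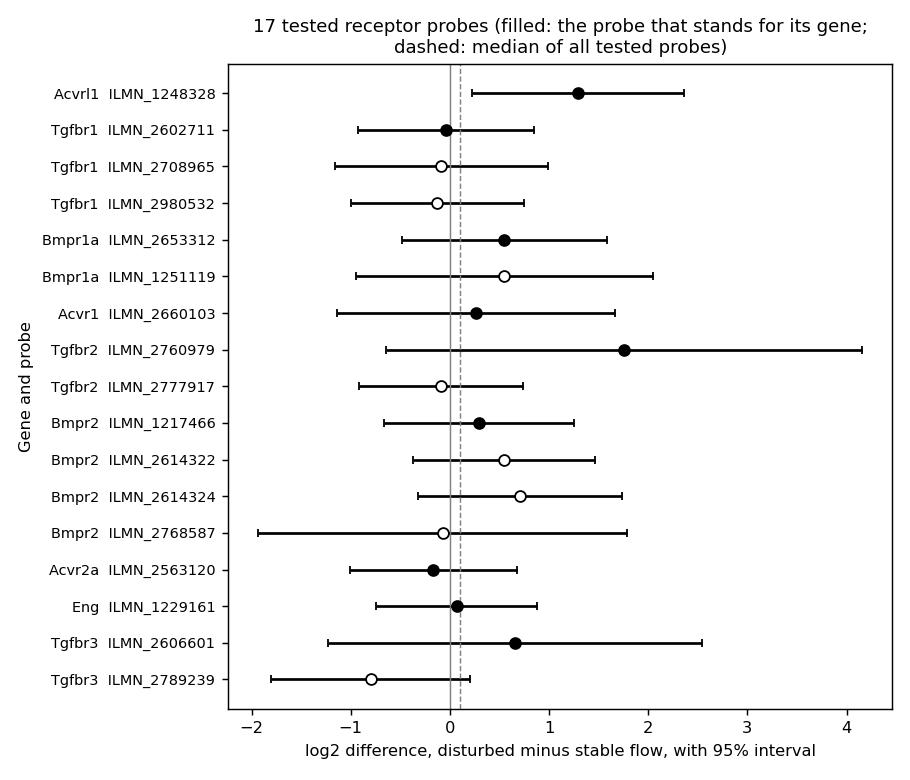
Log2 difference, disturbed minus stable flow (horizontal axis), of the 17 tested receptor probes with 95% intervals from the limma fit, filled for the probe that stands for its gene; the dashed line is the median of all tested probes (0.10). The interval of the Acvrl1 probe (0.22 to 2.36) lies above 0, and the other 16 include 0.

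The co-receptors Eng and Tgfbr3 did not differ beyond their spread. Eng has 1 probe, ILMN_1229161, with raw signals of 106, 86.6 and 81.2 on disturbed flow arrays and 138, 89.1 and 111 on stable flow arrays. Its log2 intensities were 5.02, 4.93 and 4.41 under disturbed flow and 4.89, 4.43 and 4.83 under stable flow. The groups overlap, and 1 array in each, disturbed flow replicate 3 and stable flow replicate 2, was not above background. The difference was 0.07 (SE 0.35, 95% interval -0.74 to 0.88, limma adjusted p = 0.971). It was -0.23 under 75th-percentile scaling and -0.18 with no normalization.

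Tgfbr3, or betaglycan, presents TGF-beta2 to Tgfbr2. Its probe ILMN_2606601 was above background on all 6 arrays, with 6.35, 5.14 and 8.44 under disturbed flow and 5.46, 6.01 and 6.49 under stable flow. Disturbed flow holds both the highest and the lowest array, the highest being replicate 3, as for Tgfbr2. The difference was 0.66 (SE 0.80, 95% interval -1.23 to 2.54, limma adjusted p = 0.895). It turned to -0.26 without disturbed flow replicate 3, and array weights gave 0.08. The second probe, ILMN_2789239, gave the opposite sign at -0.80 (SE 0.43, 95% interval -1.80 to 0.20, limma adjusted p = 0.890). Its values were 4.67, 4.85 and 4.48 under disturbed flow and 4.79, 6.18 and 5.43 under stable flow, with stable flow replicate 2 the highest. Without that array the difference was -0.49. The 2 probes correlated at r = -0.28.

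Set side by side, the endothelial pair and the general receptors covered a wide range of differences, and none passed the test. Acvrl1 had a difference of 1.29 and Eng of 0.07, and the 7 general receptors had a median of 0.29, from -0.17 for Acvr2a to 1.76 for Tgfbr2. Over the 6 arrays Acvrl1 and Eng correlated at r = 0.14, a description of 6 points that share their array's normalization. Within arrays, Acvrl1 minus Eng was 0.77, 1.39 and 2.36 under disturbed flow and 0.61, -0.14 and 0.39 under stable flow. The highest and the lowest of these 6 values rest on signals not above background, Eng on disturbed flow replicate 3 and both genes on stable flow replicate 2. The values do not overlap between the groups, as those of Acvrl1 alone did not. How often other pairs of genes do the same was not counted. Their difference of 1.22 is the 1.29 of Acvrl1 less the 0.07 of Eng, so it largely repeats the Acvrl1 result. It was not tested, because the pair was chosen with results of these arrays known. Among the 9 genes, the pairs with the highest correlations were Acvrl1 with Tgfbr2 (r = 0.84) and Tgfbr2 with Tgfbr3 (r = 0.77). Disturbed flow replicate 3 is the highest array for all 3 of these genes.

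**Figure D4:**
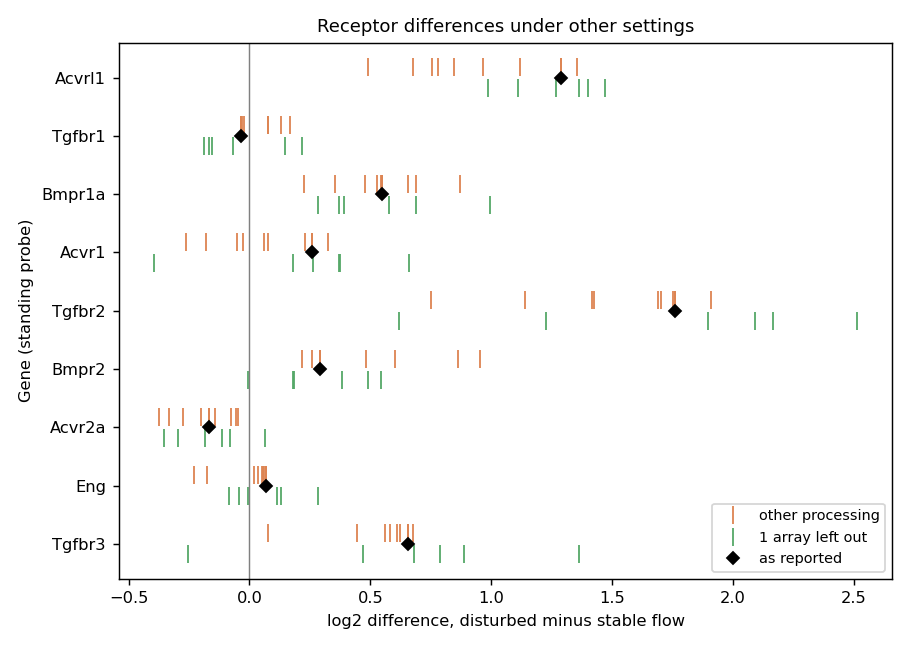
Log2 difference, disturbed minus stable flow (horizontal axis), of the probe that stands for each gene, as reported (diamonds), with 1 array left out (lower ticks) and with other processing (upper ticks, matrix columns as named not shown). Acvrl1, Tgfbr2 and Bmpr1a keep 1 sign, with Acvrl1 between 0.49 and 1.47, and the other 6 genes cross 0.

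The genes most like Acvrl1 over the 6 arrays were Rln1 (r = 0.9925), Plxnd1 (r = 0.9888) and Trim44 (r = 0.9835). Of 6979 genes compared, 201 had an r of at least 0.9 with Acvrl1. For Eng the closest were Cops6 (r = 0.9921), Nf2 (r = 0.9915) and Csnk1g3 (r = 0.9892), with 177 genes at 0.9 or more. With 6 arrays and so many genes, values of this size are common and describe these arrays only.

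The rest of the pathway gave no called gene either. From 6 lists of ligands, ligand traps, other receptors, Smads, modulators and targets, 0 genes passed limma's test in either direction. Of the 13 other receptors and co-receptors, 6 were tested, with a median difference of 0.26. Those with the smallest p were Lrg1, a secreted modulator of TGF-beta signalling in vessels, at 0.82 (SE 0.64), and the BMP co-receptor gene Rgma at 0.33 (SE 0.33). Acvr1c and Bmpr1b, both type I receptors, were above background on no array.

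The ligands were sparsely detected. Of 23, 5 were tested, with a median of -0.28, and 10 were above background on no array. Bmp10, a ligand of ALK1 singled out here after its values were seen, is among those 10. The standing probes of all 5 were below 0, but other probes of Bmp4 and of Bmp1, a procollagen protease despite its name, gave 0.39 and 0.24. Both were named after their values were seen. The ligand genes with the smallest p were Tgfb2 at -0.42 (SE 0.59) and Bmp6 at -0.29 (SE 0.50). Tgfb2 turned to 0.13 without stable flow replicate 1, and Bmp6 to 0.09 under 75th-percentile scaling. Of the 23 genes of ligand traps, latency and activation, 11 were tested, with a median of -0.05. Itgav, an integrin subunit that takes part in releasing latent TGF-beta, had 0.84 (SE 0.58) and the latency protein gene Ltbp3 had 0.65 (SE 0.47), with -0.24 for its other probe.

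Downstream, 5 of 8 Smads were tested, with a median of 0.36. Smad3, activated by TGF-beta receptors, had -0.92 (SE 0.74), with 0.08 for its other probe, and Smad1, activated by BMP receptors, had 0.60 (SE 0.71), with 0.69 for its other probe. Of 19 intracellular modulators, 16 were tested, 12 above 0 and 4 below, with a median of 0.26. The Smad corepressor genes Ski and Tgif1 had the smallest p, at 1.26 (SE 0.50) and -1.20 (SE 0.49), opposite in sign, and the other Ski probe gave 0.31. Among the 20 target genes 10 were tested, 5 above 0 and 5 below, with a median of -0.14. They ran from -1.54 (SE 0.83) for Ccn2, with -1.94 (SE 0.88) for its other tested probe, to 1.47 for Id2. Id3, of the same family as Id2, had -0.87 (SE 0.46). Ccn2 and Id3 were named after their values were seen.

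The targets with the smallest p were Id2 and Hey1. Id2, an inhibitor of basic helix-loop-helix factors and a target of BMP signalling, had 6.96, 7.64 and 6.34 under disturbed flow and 5.63, 4.94 and 5.93 under stable flow. Its groups do not overlap, nor do those of Hey1, which makes 2 of the 10 target genes higher, beside 5.68% of all tested probes. Hey1 passed the filter on dim probes through its disturbed flow arrays alone, where it is high. The filter thus favoured its lack of overlap, which carries no weight here, and the count of 2 was not tested. Of the 16 modulators, 2 did not overlap with disturbed flow lower, beside 4.00% of all: Tgif1, and Nedd4l, a ubiquitin ligase gene named after its values were seen. The Id2 difference was 1.47 (SE 0.46, limma adjusted p = 0.890), with 0.23 and 1.12 for its other probes. Hey1, a transcription factor gene downstream of Notch and of BMP9, was above background on 3 disturbed flow arrays and 0 stable flow arrays. This pattern, through which it passed the filter, was that of 1.14% of the tested probes, and the reverse that of 0.28%. On these arrays the Hey1 mean was at least 1.04-fold higher under disturbed flow, with means of 5.12 and 4.41. That bound replaces each dim array by the lowest signal above background there, or by its own value where larger. It carries no sampling error, so it is no lower limit on an effect of flow. The Hey1 difference was 0.72 (SE 0.31, limma adjusted p = 0.890).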

How the data were processed

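The authors' deposited table of unprocessed values gives 1 signal intensity per probe and array and, per the file headers, a detection p-value beside it. Per the submitters' processing notes the software was GenomeStudio 2011.1, with settings not given in the sources used here. A series matrix, also deposited, holds intensity values used only as an alternative (floored at 1, then 16 added). From 36.0% to 36.5% of each column lay below 0, and no source states how those were made. Signals were processed with neqc of limma 3.58.1 (R 4.3.3), which takes the background from the detection p-values. Probes with detection p under 0.05 on at least 3 of 6 arrays were tested two-sided with lmFit and eBayes, and p-values were adjusted by Benjamini-Hochberg over all 12546 probes. Gene symbols are those of the platform annotation, brought up to date by gene ID (34885 probes with 1 symbol, 18 with several, 10378 unnamed here). No coordinates are given, since no build is named.

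The members and lists were chosen with earlier results of these data known. Of each pathway list, the 2 genes with the smallest p are named. Same-numbered arrays were checked for pairing: their deviations from the group means correlated at -0.03, -0.07 and -0.08. With 3 arrays per group the deviations constrain each other, so this check cannot show whether equal numbers share an animal. The main fit did not treat the numbers as pairs, and an alternative with a replicate block did. The number of arrays limits the precision. Simulated data had 200 changed probes among 12546. There the fit called 0.2% of log2 changes of 1, 28.6% of 2, 78.6% of 3 and 92.6% of 4. These rates hold for the simulated noise and are not the power of the real arrays. Array weights estimated from the real data ran from 0.28 (stable flow replicate 2) to 2.10 (stable flow replicate 3). Whether the rates hold with arrays this unequal was not tested.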

Additional observations from a re-analysis of the deposited data

How the results depend on the processing

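The count of called probes was 0 in each of the 18 alternatives, for the receptors and for all probes. An unadjusted p under 0.05 was reached by 338 of 12546 probes as reported. This count ran from 15 of 12546 when arrays were not normalized to 2097 of 45281 without the filter on dim probes. The median over the 9 receptor genes stayed between 0.08 (array weights) and 0.61 (no normalization), except with the matrix columns as named, where it was -0.33. The replicate block gave the same differences (Acvrl1 1.29, adjusted p = 0.962) and changed no call. Of the 17 receptor probes, 6 kept their sign in each alternative in which they were fitted, the matrix columns as named aside, among them the standing probes of Acvrl1, Tgfbr2 and Bmpr1a. Those columns turned all 17: Acvrl1 -1.36, Eng -0.068, Tgfbr1 0.034, 0.059 and 0.12, Tgfbr2 -1.75 and 0.094, Tgfbr3 -0.65 and 0.84, Bmpr1a -0.58 and -0.55, Bmpr2 -0.29, -0.55, -0.73 and 0.017, Acvr1 -0.33, and Acvr2a 0.20. They also gave -0.85 for Lrg1, -0.42 for Rgma, 0.41 for Tgfb2, 0.29 for Bmp6, -0.91 for Itgav, -0.72 for Ltbp3, 0.92 for Smad3, -0.60 for Smad1, -1.32 for Ski, 1.23 for Tgif1, -1.47 for Id2 and -0.88 for Hey1. Given to the arrays of the same rank order, an alternative chosen after the data were seen, the same columns gave Acvrl1 1.36 and a receptor median of 0.33.

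The 75th-percentile scaling turned Eng to -0.23, Tgfbr1 to 0.13, Acvr1 to -0.026, Rgma to -0.030 and Bmp6 to 0.091. Without normalization these were -0.18, 0.17, -0.26, -0.074 and 0.30. Cyclic loess turned Tgfbr1 to 0.075 and 0.067 and Acvr1 to -0.18, and array weights turned them to 0.078, 0.11 and -0.051. With 1 array left out, Eng ranged from -0.084 to 0.28, the Tgfbr1 probes from -0.19 to 0.22, -0.53 to 0.18 and -0.28 to 0.15, and Tgfbr2 ILMN_2777917 from -0.31 to 0.10. Tgfbr3 ILMN_2606601 ranged from -0.26 to 1.36, Bmpr1a ILMN_1251119 from -0.13 to 1.09, Bmpr2 from -0.0069 to 0.54 (ILMN_1217466) and -0.98 to 0.66 (ILMN_2768587). Acvr1 ranged from -0.40 to 0.66, Acvr2a from -0.35 to 0.065, Tgfb2 from -1.02 to 0.13 and Bmp6 from -0.78 to 0.15. The cause of these changes was not tested. The filter for all 6 arrays left 5 of the 17 probes, so Acvrl1 and Tgfbr2 have no value there. The slide could not be fitted as a block, since each slide holds 1 described group. At a detection p under 0.01, 13 receptor probes in place of 17 were above background on at least 3 arrays.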
